A study of Homo sapiens with 10 samples.

Results

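PC9 is an established human lung adenocarcinoma line whose growth depends on an activated EGF receptor. This report compares its 2 control cultures, one carrying a scrambled shRNA and one held in DMSO. Genes were taken at 5 FPKM (fragments per kilobase of transcript, scaled to the mapped fragments of the library) or more in either library, which kept 8731 of the 21643 genes used. The tables hold 23242 genes, from which small RNA symbols, genes absent from a table and a gene without an estimate had been left out. The value of each gene is the log2 ratio of FPKM plus 1, scrambled over DMSO, from which the median over the genes kept, 0.20, was subtracted.

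The series holds 10 RNA libraries from the lines PC9, PC9M and H358, each the single library of its group. It asks what the ABL kinases do in lung carcinoma cells, by comparing GNF5, an allosteric ABL inhibitor, with DMSO, and shRNAs against ABL1 and ABL2 with a scrambled shRNA. In PC9 the DMSO library and the library given 10 mM GNF5 (the unit written in the labels) for 72 h are the pair of one deposited table. The scrambled library and the library with ABL1/ABL2-specific shRNAs, both transduced with 8 µg/mL polybrene, are the pair of another. PC9M has the same 4 groups, with 20 mM GNF5, and the labels describe it as more prone to bone and brain metastasis. All lines grew in RPMI medium with serum, and neither the time after transduction nor any selection is given in the sources used here. Transduction, the DMSO vehicle and the separately scaled table changed together between the control libraries of PC9, so their parts in any difference cannot be told apart. Culture age, cell density and sequencing run are not given in the sources used here. With 1 library on each side there is no replicate error and no test, and every value below describes these libraries.

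In a culture that grows, part of the cells are in S phase or mitosis at any time. Genes for the replication machinery are switched on by E2F factors as cells enter S phase, and genes for chromosome segregation follow in G2 through CCAAT boxes and the CHR element. ATF4 is the factor made when amino acids run short or the endoplasmic reticulum is under stress, and it raises genes for amino acid synthesis and uptake. In bulk RNA fewer cells in a state and less RNA in each cell cannot be told apart.

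The promoters of 4 genes are printed because their lists lie at the ends of the comparison. Each is the 250 bases before the start site from RefSeq on GRCh38.p14, written along the gene. RRM2 (chr2:10122489-10122738, plus strand) and ANLN (chr7:36389612-36389861, plus strand) came from the rule for named genes, and CBS, which it named for the ATF4 list, held neither the amino acid response letters nor CCAAT. SPDEF, named for the mucin list, was not searched. GINS2 (chr16:85688955-85689204, minus strand) and ASNS (chr7:97872409-97872658, minus strand) were added after their matches had been seen. Capitals mark CCAAT in RRM2 and GINS2, an E2F-type match near the start in GINS2, paired CHR-type matches in ANLN, and a match to the amino acid response element in ASNS.
RRM2: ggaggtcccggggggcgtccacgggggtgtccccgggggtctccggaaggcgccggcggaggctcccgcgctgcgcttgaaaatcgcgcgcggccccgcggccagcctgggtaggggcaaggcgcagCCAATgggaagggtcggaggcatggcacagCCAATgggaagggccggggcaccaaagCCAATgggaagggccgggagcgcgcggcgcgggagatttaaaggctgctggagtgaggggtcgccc
GINS2: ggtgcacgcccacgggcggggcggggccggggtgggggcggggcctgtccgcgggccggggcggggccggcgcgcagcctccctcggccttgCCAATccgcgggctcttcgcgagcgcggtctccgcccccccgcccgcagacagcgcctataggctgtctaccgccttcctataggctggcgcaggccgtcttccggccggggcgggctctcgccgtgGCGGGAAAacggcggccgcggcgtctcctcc
ANLN: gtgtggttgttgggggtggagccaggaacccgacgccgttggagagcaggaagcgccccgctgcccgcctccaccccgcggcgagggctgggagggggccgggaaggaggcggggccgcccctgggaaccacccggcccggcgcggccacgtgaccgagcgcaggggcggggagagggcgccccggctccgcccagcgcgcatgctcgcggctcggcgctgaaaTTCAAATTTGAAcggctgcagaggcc
ASNS: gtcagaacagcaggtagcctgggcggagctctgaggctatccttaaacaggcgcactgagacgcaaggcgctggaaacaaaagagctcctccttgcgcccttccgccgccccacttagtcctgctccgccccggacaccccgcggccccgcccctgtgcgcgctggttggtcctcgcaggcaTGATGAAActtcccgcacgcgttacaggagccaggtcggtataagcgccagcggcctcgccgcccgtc
Motifs were searched on both strands in these windows for all list members with a RefSeq promoter. The E2F letters TTTCGCGC, TTTGGCGC, TTTCCCGC or TTTGCCGC stood in 15 of 36 replication promoters (41.7%), in 2 of 31 mitosis promoters and in 2.79% of all 27305 promoters. The CHR letters TTTGAA or TTCGAA stood in 18 of 31 mitosis promoters (58.1%), in 2 of 36 replication promoters and in 14.6% of all. CCAAT stood in 83.9% of mitosis promoters, 58.3% of replication promoters, 51.9% of promoters of the ATF4 list and 33.0% of all. The amino acid response letters TGATGNAA stood in 4 of 27 promoters of the ATF4 list (14.8%) and in 3.19% of all. The motifs do not overlap in letters, and these shares describe the sequences and no binding.

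The libraries were checked before the results. EPCAM, a surface protein of epithelial cells, was at 333 FPKM in DMSO and 543 in scrambled, and KRT8 and KRT18, the keratins of simple epithelia, were between 1881 and 5138 FPKM in both. EGFR was at 97.5 and 139 FPKM. Of 12 blood cell markers none reached 5 FPKM, CD3E, HBA1 and HBB were listed at 0 in both controls, and the list summed to 3.55 FPKM in DMSO and 1.55 in scrambled. Of 12 fibroblast and endothelial markers 2 were kept, PECAM1 at 23.2 against 5.33 FPKM and CDH5 at 8.32 against 8.98, while the fibroblast genes DCN and PDGFRA were listed at 0 in both. The shRNA target ABL1 was at 17.995 FPKM in DMSO, 17.8 in GNF5, 24.9 in scrambled and 3.97 in the library with ABL1/ABL2 shRNAs. ABL2 was at 4.16, 7.09, 7.88 and 1.87 FPKM in that order. Both targets were thus lowest in the library labelled as their knockdown.

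The number of fragments is not stated. From the spacing of the smallest FPKM values, the scrambled library was put at 0.944 times the depth of DMSO in PC9 and 1.00 times in PC9M. The estimate rests on 117 of 1298 genes in PC9 and 186 of 1682 in PC9M. The spacing also carries the separate scaling of each table, so it does not establish that the PC9 controls had similar depth. In DMSO 7866 genes and in scrambled 8223 genes reached 5 FPKM. The minimum is sharp: TPM2 was just kept at 5.002 FPKM in DMSO and 1.54 in scrambled, and FMNL1, at 4.999 FPKM in DMSO and at 3.21 in scrambled, was just left out.

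The control libraries of PC9 stood far apart. At least 2-fold higher in scrambled were 660 genes (7.56% of those kept) and at least 2-fold lower were 862 (9.87%), together 1522 genes or 17.4%. In PC9M the same comparison gave 85 genes higher (0.978%) and 62 lower (0.713%), together 1.69% of 8690. The standard deviation of the ratios over genes was 0.81 in PC9 and 0.36 in PC9M. GNF5 against DMSO in PC9 put 926 genes at least 2-fold apart (11.2% of 8281, with 5.25% higher and 5.93% lower). The ABL1/ABL2 shRNAs against scrambled put 162 apart (1.91% of 8473, with 0.755% higher and 1.16% lower). The 2 controls of PC9 thus differed at more genes than either treatment differed from its own control, while the controls of PC9M differed at fewer genes than DMSO and GNF5 did there, 147 against 206, though at more than the 74 between its shRNA libraries. Genes of every level took part. Of 1747 genes with mean levels up to 7.20 FPKM, 11.7% were 2-fold higher and 14.1% lower, and of the 1746 genes from 45.0 FPKM up, 5.38% and 10.7%.

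**Figure D1:**
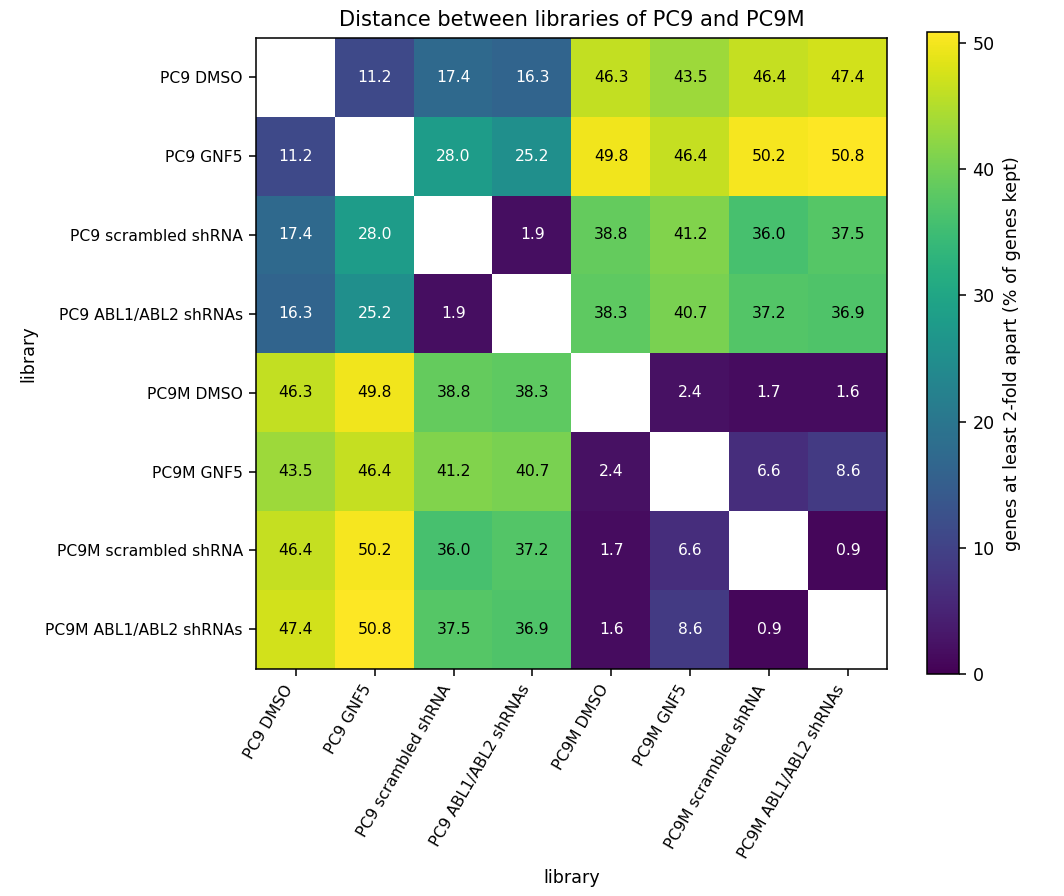
Percentage of kept genes at least 2-fold apart, after centring, for each pair of the 8 PC9 and PC9M libraries (both axes list libraries, colour and printed number give the percentage). The PC9 scrambled and ABL1/ABL2 shRNA libraries were 1.91% apart, and both were 16.3% to 28.0% from the DMSO and GNF5 libraries of the other table.

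The distances split the 4 PC9 libraries by table. The scrambled library lay 1522 genes from DMSO and 2458 from GNF5, and the ABL1/ABL2 shRNA library lay 1407 and 2183 genes from them. Both shRNA libraries were also nearer to PC9M than the DMSO library was: scrambled differed from the PC9M scrambled library at 36.0% of genes and DMSO at 46.4%. A comparison that shares no library with scrambled over DMSO is ABL1/ABL2 shRNAs over GNF5, in which 1016 genes were at least 2-fold higher (11.7%) and 1167 lower (13.5%). Over the 8311 genes kept in both comparisons, 401 were 2-fold higher in both, which is 64.4% of the 623 in the first and 40.7% of the 985 in the second. Likewise 444 were 2-fold lower in both, 58.4% of 760 and 43.7% of 1015. Opposite calls were 3 and 5 genes. Both comparisons contrast the tables as well as the cultures, and these cannot be told apart.

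DNA replication genes were higher in the scrambled library without exception among the kept. Of 42 listed genes 40 were kept, all 40 were above the median gene (50% of all genes by construction) and 39 were at least 2-fold higher, against 7.56% of all genes. The list median was 2.19, where the median over all genes is 0. The list summed to 405 FPKM in DMSO, 457 in GNF5, 1991 in scrambled and 1766 with the ABL1/ABL2 shRNAs. A gene such as CLSPN, kept only through its 7.09 FPKM in scrambled, had to differ. RRM2, GINS2 and ORC1, at 1.22, 2.39 and 2.92 FPKM in DMSO, also passed through scrambled only. Only 23 of the 40 reached the minimum in DMSO or GNF5, so the count leans on it for many members, top genes included. With no minimum the list median was 2.35. POLE2 and CCNE2, left out by the minimum, were at 0.25 and 0.12 FPKM in DMSO and 4.98 and 2.97 in scrambled.

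RRM2 encodes the small subunit of ribonucleotide reductase, which makes the deoxynucleotides for S phase, and lies at chr2:10180146-10188997 in hg18. It was at 1.22 FPKM in DMSO, 1.92 in GNF5, 37.7 in scrambled and 42.1 with the ABL1/ABL2 shRNAs, a ratio of 3.93. No other replication gene was as far apart, and its 2 shRNA libraries lay 3.42 above the nearer of the other table on the log2 scale. In PC9M it was at 127 FPKM in DMSO, 49.8 in GNF5, 177 in scrambled and 212 with the ABL1/ABL2 shRNAs, so the PC9 DMSO level was the lowest of the 8. MCM2, a subunit of the replicative helicase (chr3:128799943-128823968 in hg18), was at 6.53 FPKM in DMSO, 11.2 in GNF5, 64.6 in scrambled and 63.1 with the ABL1/ABL2 shRNAs, a ratio of 2.92. GINS2, which joins that helicase at the fork (chr16:84268781-84280089), was at 2.39, 2.71, 35.9 and 35.1 FPKM in the same order, a ratio of 3.25. In both genes the shRNA libraries were close to each other and several times above the libraries of the GNF5 table.

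The other helicase genes were higher too. CDC45, which completes the active helicase, was at 5.71 FPKM in DMSO and 54.8 in scrambled (2.85), and the loading factor ORC1 at 2.92 and 30.1 (2.79). MCM3, MCM4, MCM5 and MCM6 had ratios from 2.22 to 2.70, and MCM7 had 1.21 from a level of 105 FPKM in DMSO. The sliding clamp PCNA was at 35.5 FPKM in DMSO and 241 in scrambled (2.53), and FEN1, which trims Okazaki fragments, at 8.33 and 68.0 (2.68). At the other end of the list were the polymerase subunit POLD1 at 0.83 and the clamp loader subunit RFC4 at 1.05. In all 40 kept genes both shRNA libraries were above both libraries of the GNF5 table, against 32.6% of all genes, and for 33 the gap was at least 2-fold, against 4.01%. These counts too lean on the minimum for members kept through scrambled only. In PC9M 36 of 42 kept members were higher in scrambled but none by 2-fold, and the median was 0.20.

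Mitotic genes were higher as well, 37 of 37 kept of 38 listed. By 2-fold or more 35 were higher, against 7.56% of all genes, and the list median was 1.73. ANLN, an actin-binding scaffold of the cleavage furrow (chr7:36330284-36459925 in hg18), was at 7.16 FPKM in DMSO, 13.6 in GNF5, 68.8 in scrambled and 44.5 with the ABL1/ABL2 shRNAs, a ratio of 2.90. CDK1, the kinase that drives entry into mitosis, was at 15.7, 28.8, 112 and 52.5 FPKM in that order, a ratio of 2.56. The scrambled library was the highest of the 4 PC9 libraries for both. The spindle motor KIF11 had 2.44, the checkpoint kinase TTK 2.40, the checkpoint protein MAD2L1 2.31 and the proliferation antigen MKI67 2.20. In DMSO KIF11, TTK and MKI67 were at 2.60, 4.41 and 1.18 FPKM. They passed the minimum through scrambled only. Of the 37 kept, 30 reached it in DMSO or GNF5, so the count leans on the minimum for such members. The smallest ratios were those of CENPA, the centromeric histone, at 0.42 and BUB3 at 0.44.

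Mitosis differed from replication in the other comparisons. The mitotic median with GNF5 over DMSO was 0.65 and with the ABL1/ABL2 shRNAs over scrambled -0.23, where replication had 0.29 and -0.03. Both comparisons share their controls with scrambled over DMSO. The GNF5 medians cover the 30 mitotic and 23 replication members that passed the minimum there, so they compare lists reduced to different degrees. In PC9M 24 of 38 mitotic genes were lower in scrambled, with a median of -0.09. The list summed to 469 FPKM in PC9 DMSO, 1758 in PC9 scrambled, 2381 in PC9M DMSO and 2242 in PC9M scrambled, and PC9 DMSO was the lowest of the 8 libraries for it and for replication.

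**Figure D2:**
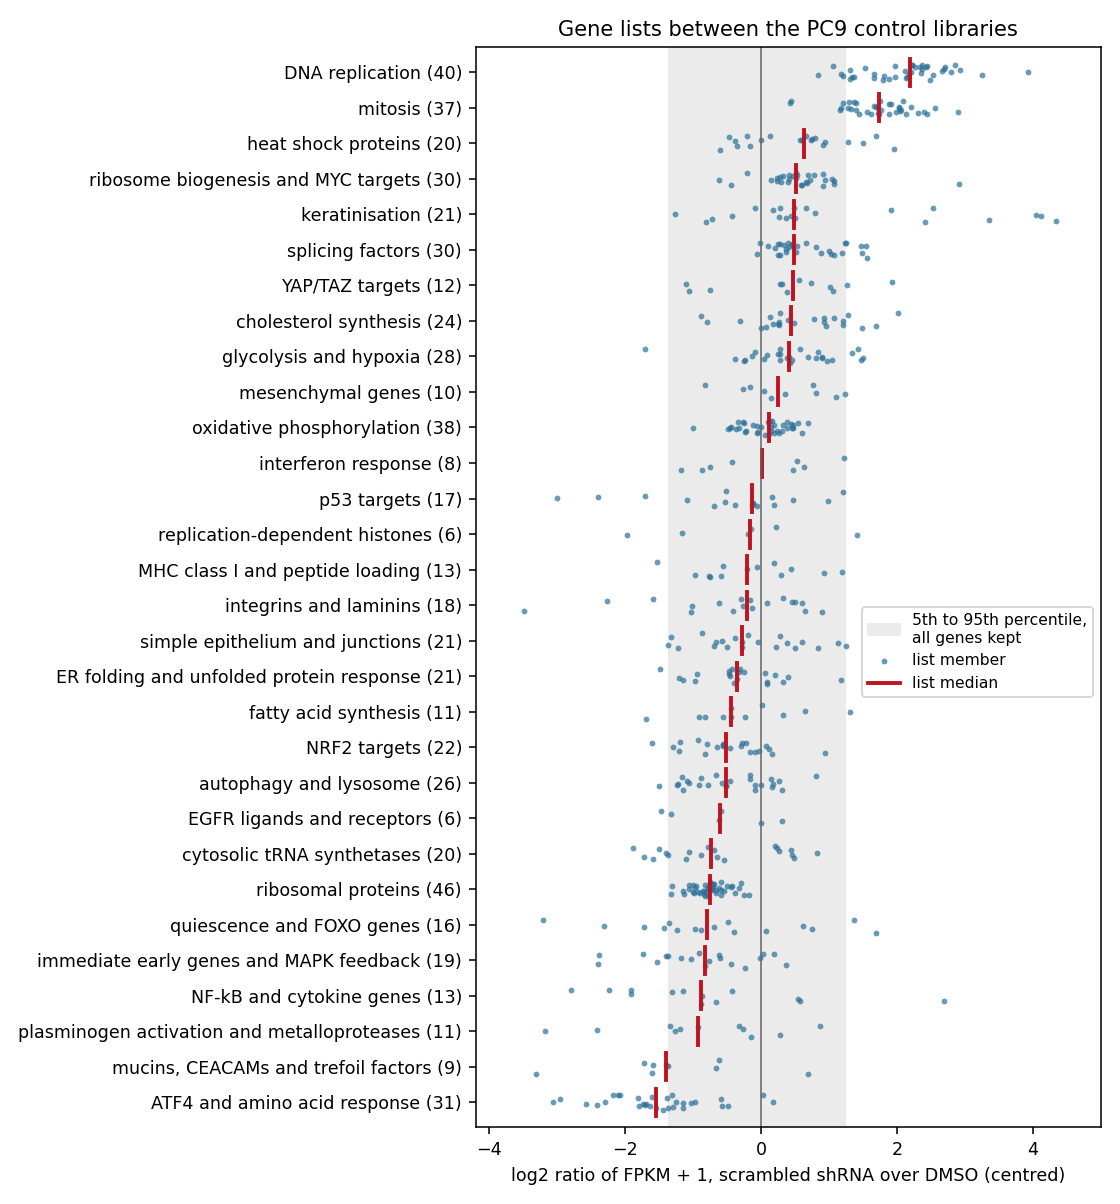
Centred log2 ratio of FPKM plus 1, scrambled over DMSO in PC9 (x axis), for the kept members of the 30 lists with at least 5 (y axis, number kept in brackets, points are genes and red bars list medians). DNA replication at a median of 2.19 and mitosis at 1.73 lie beyond the 95th percentile of all genes kept, 1.24, and the ATF4 list at -1.54 and the mucin list at -1.40 below the 5th, -1.36.

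Genes next to the cell cycle were among the highest without being on the lists. The 12 highest protein-coding genes held the kinetochore proteins ZWINT (11.9 FPKM in DMSO and 144 in scrambled, 3.29) and SPC24 (3.07 and 35.9, 2.98), CDCA7, a cell cycle gene needed for DNA methylation (2.59 and 51.7, 3.68), and the spindle protein FAM83D (5.78 and 64.4, 3.07). MYBL2, the MYB factor of the late cell cycle, was at 7.58 FPKM in DMSO, 6.15 in GNF5, 65.7 in scrambled and 82.5 with the ABL1/ABL2 shRNAs. TCF19, a gene of the G1/S transition, was at 1.03, 0.81, 15.4 and 11.8 FPKM in that order. DKK1, a secreted inhibitor of WNT signalling, was at 3.02, 2.59, 38.9 and 48.7 FPKM, a ratio of 3.11, and in PC9M its ratio was -0.36. BRI3BP, at 2.69 FPKM in DMSO and 36.6 in scrambled, had 3.15. CDCA7, SPC24, TCF19, DKK1 and BRI3BP were below 5 FPKM in DMSO and passed the minimum through scrambled only. Their direction therefore leans on the minimum. ZWINT, FAM83D and MYBL2 reached the minimum in both controls.

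Quiescence and FOXO genes, a list that holds brakes on the cycle and also the G1 cyclins, were lower for 11 of 16 kept members of 24. The median was -0.79. At least 2-fold lower were 6, against 9.87% of all genes, and 2 were 2-fold higher, against 7.56%. CDKN2B, an inhibitor of the G1 kinases, was at 28.6 FPKM in DMSO, 5.04 in GNF5, 2.66 in scrambled and 4.73 with the ABL1/ABL2 shRNAs, a ratio of -3.22. DMSO was highest and the other 3 were close together, so this gene did not follow the tables. The repressor BCL6 was at 37.8, 63.0, 7.94 and 7.84 FPKM (-2.32), and the insulin receptor substrate IRS2 at 71.1, 81.9, 24.2 and 44.1 (-1.72), both lower in the shRNA libraries. The pocket protein RBL2 had -1.24 and TXNIP, an arrestin that limits glucose uptake, -1.43. The factor KLF2 at 1.69 and the G1 cyclin CCND3 at 1.36 lay on the other side. The list median was -0.04 with ribosomal proteins as the centre, -0.30 with no minimum and -1.37 with a minimum of 20 FPKM.

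Among p53 targets 5 of 17 kept were higher and 12 lower, with a median of -0.13 that turned to 0.07 without centring and to 0.63 with ribosomal proteins as the centre. GDF15, a secreted stress cytokine, was at 319 FPKM in DMSO, 492 in GNF5, 44.7 in scrambled and 81.2 with the ABL1/ABL2 shRNAs, a ratio of -3.01, and BBC3, which encodes PUMA, at 21.5, 47.0, 3.88 and 5.33 (-2.41). CDKN1A, which encodes p21, was at 14.2 FPKM in DMSO and 15.0 in scrambled, a ratio of -0.13. Replication-dependent histones, whose mRNAs lack poly(A) tails, had 6 of 21 members kept, 2 higher and 4 lower, with a median of -0.17 that turned positive under 4 of the other settings.

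The ATF4 list was the furthest in the other direction. Of 31 kept members of 35, 29 were lower in scrambled and 25 at least 2-fold, against 9.87% of all genes, with a median of -1.54. The list summed to 4581 FPKM in DMSO, 3883 in GNF5, 1978 in scrambled and 1554 with the ABL1/ABL2 shRNAs. In 25 genes both shRNA libraries were below both of the GNF5 table, against 31.8% of all genes, and in 11 by at least 2-fold, against 3.8%. DMSO stood highest: GNF5 over DMSO had a median of -0.63, so the GNF5 library lay between.

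CBS and CTH, the enzymes that turn homocysteine into cysteine, had the lowest ratios of the list. CBS (chr21:43346370-43369541 in hg18) was at 21.9 FPKM in DMSO, 5.34 in GNF5, 2.14 in scrambled and 2.63 with the ABL1/ABL2 shRNAs, a ratio of -3.06. CTH (chr1:70649489-70678122) was at 51.7, 23.1, 6.75 and 5.69 FPKM in that order, a ratio of -2.96. Both were highest in DMSO, lower in GNF5 and lowest in the shRNA libraries. ASNS, asparagine synthetase (chr7:97319365-97339790 in hg18), was at 108 FPKM in DMSO, 73.5 in GNF5, 20.1 in scrambled and 12.9 with the ABL1/ABL2 shRNAs, a ratio of -2.57. CHAC1, which degrades glutathione, was at 41.2, 5.61, 8.07 and 2.19 FPKM, a ratio of -2.42, and was high in DMSO only. The mitochondrial PEPCK gene PCK2 had -2.30, and DDIT3, which encodes CHOP, went from 58.2 to 14.0 FPKM (-2.18). ATF4 itself was at 338 FPKM in DMSO and 163 in scrambled (-1.25). The serine enzyme PSPH at 0.17 and the proline enzyme ALDH18A1 at 0.02 were the 2 members not lower.

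PC9M went the other way for this list. There 19 of 27 kept members were higher in scrambled, and the list median was 0.43. By 2-fold or more 3 were higher, against 0.978% of all genes. ASNS was at 13.5 FPKM in PC9M DMSO, 83.8 in GNF5, 39.4 in scrambled and 22.8 with the ABL1/ABL2 shRNAs, a ratio of 1.49 between the controls. CHAC1 was at 0.91, 9.41, 7.23 and 1.33 FPKM, a ratio of 2.12. PC9M DMSO was the lowest of its line for both genes where PC9 DMSO was the highest of its own.

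Cytosolic tRNA synthetases, several of which are ATF4 targets, split. Of 20 genes 13 were lower, 8 at least 2-fold, and 7 were higher, none by 2-fold, with a median of -0.73 that became 0.02 with ribosomal proteins as the centre. SARS, for serine, was at 265 FPKM in DMSO, 155 in GNF5, 81.7 in scrambled and 67.7 with the ABL1/ABL2 shRNAs (-1.89). CARS had -1.72, WARS -1.60, AARS -1.51, GARS -1.40 and MARS -1.37. FARSB, for phenylalanine, was at 62.1 FPKM in DMSO and 127 in scrambled (0.82). ER folding genes had a median of -0.36 (0.40 with ribosomal proteins as the centre), 14 of 21 lower. Those lower by at least 2-fold were 3 of 21, a share near the 9.87% of all genes: DNAJB9 at -1.49, HERPUD1 at -1.21 and the unfolded protein response factor XBP1 at -1.14. The chaperone HSPA5 was at 347 FPKM in DMSO and 202 in scrambled (-0.98), and SDF2L1, at 1.17, was the one member 2-fold higher.

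**Figure D3:**
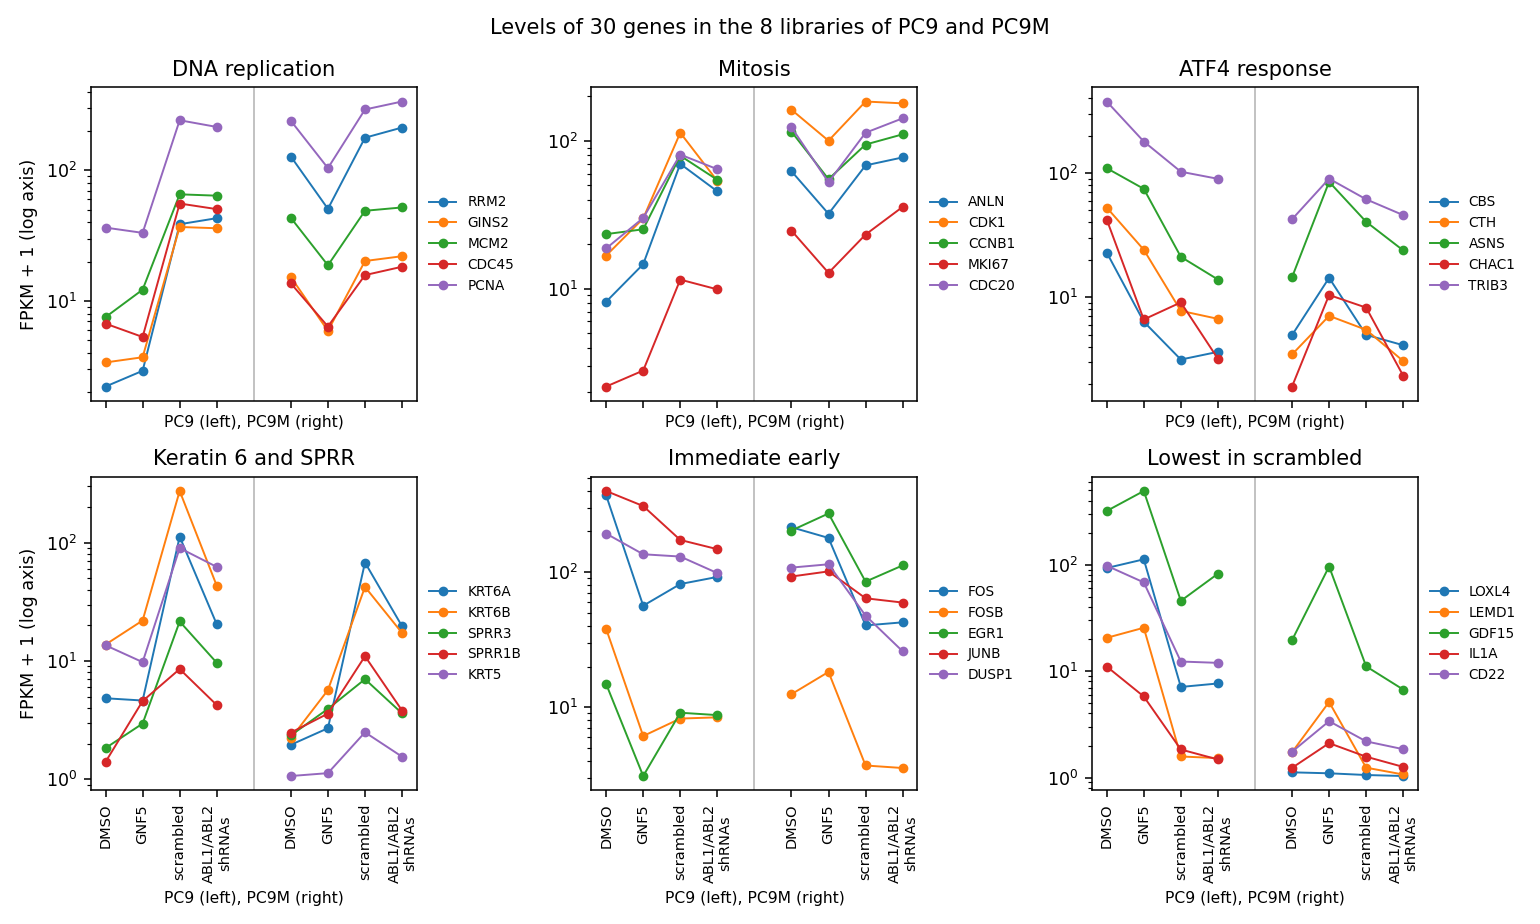
FPKM plus 1 on a log axis for 30 genes in 6 panels, in the PC9 libraries (left of each grey line) and the PC9M libraries (right), with 1 point per library joined by gene. RRM2 was at 1.22 and 1.92 FPKM in the GNF5 table of PC9 and at 37.7 and 42.1 in its shRNA table, and ASNS was highest in DMSO in PC9 and lowest in DMSO in PC9M.

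Keratins of stressed and wounded epidermis held the top of the comparison. KRT6A (chr12:51167225-51173448 in hg18) was at 3.84 FPKM in DMSO, 3.63 in GNF5, 112 in scrambled and 19.5 with the ABL1/ABL2 shRNAs, a ratio of 4.34 and the highest among protein-coding genes. KRT6B was at 12.8, 21.01, 273 and 42.3 FPKM in that order (4.11), and KRT6C at 1.69, 2.56, 49.997 and 6.46 (4.05). The scrambled library was the highest, and the knockdown library of the same table was several times lower. For all 3 genes the knockdown library was still above both libraries of the GNF5 table. The 3 genes lie side by side and are nearly identical, so the split of fragments among them is uncertain. SPRR3, a protein of the cornified envelope, was at 0.83, 1.96, 20.6 and 8.67 FPKM (3.36), SPRR1B had 2.41 and KRT5, the basal keratin, was at 12.6, 8.78, 89.3 and 61.5 (2.53).

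In PC9M KRT6A was at 0.96 FPKM in DMSO, 1.70 in GNF5, 67.1 in scrambled and 18.7 with the ABL1/ABL2 shRNAs, a ratio of 5.13, and KRT6B was at 1.22, 4.68, 41.4 and 16.3 (4.26). In both lines scrambled was the highest library for these genes and the knockdown the next. Keratinisation genes as a whole were mixed in PC9. Of 21 kept of 30, 16 were higher and 7 at least 2-fold, against 7.56% of all genes, with a median of 0.49. KRT6A, KRT6C, SPRR1A, SPRR1B and SPRR3 passed the minimum through scrambled only, so the count leans on the minimum for them. The calgranulin S100A9 went from 748 to 355 FPKM (-1.27) and KRT16 had -0.82. In PC9M 15 of 17 were higher and 7 at least 2-fold, against 0.978% of all genes, with a median of 0.61. There KRT6A, KRT6B, KRT6C, SPRR1A, SPRR1B and SPRR3 passed through scrambled only, so that count leans on the minimum for most of its 2-fold genes.

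Among protein-coding genes with status OK, LOXL4 had the lowest ratio. LOXL4, which crosslinks collagen (chr10:99997433-100017997 in hg18), was at 92.0 FPKM in DMSO, 111 in GNF5, 6.10 in scrambled and 6.65 with the ABL1/ABL2 shRNAs, a ratio of -3.91. LEMD1, a cancer-testis antigen, was at 19.5, 24.6, 0.58 and 0.52 FPKM (-3.90). These had the widest gaps between the tables, 3.68 and 3.83 on the log2 scale. The B cell lectin CD22 was at 96.8, 67.2, 11.3 and 10.96 FPKM, lower in both shRNA libraries. GSDMB, a gasdermin, CYP4F3, which inactivates leukotriene B4, and the zinc finger gene ZNF467 had gaps of 2.58, 2.67 and 2.52. TMED7-TICAM2, a readthrough gene, was at 7.89 and 13.6 FPKM in the GNF5 table and listed at 0 in scrambled.

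Other genes at the low end, TRIM17 aside, were highest in DMSO and lower in the remaining 3 libraries. The cholesterol exporter ABCG1 was at 42.7 FPKM in DMSO, 9.70 in GNF5, 2.47 in scrambled and 1.62 with the ABL1/ABL2 shRNAs (-3.85). DMBT1, a mucosal defence protein, was at 11.5, 0.38, 0.32 and 0.27 FPKM (-3.45), and FGF19, a hormone of bile acid control, at 18.2, 4.77, 1.23 and 1.57 (-3.30). For these the DMSO library stood apart from its own treated partner too. The ligand WNT6 had -3.75, the carboxylesterase CES1 -3.53, the trypsinogen PRSS1 -3.42, TRIM17 -3.33 with GNF5 the highest library, the factor SPDEF -3.32 and the peptide ADM2 -3.27. PRSS1 has close paralogs, which makes its level uncertain. All genes named in this paragraph but ADM2 were below 5 FPKM in scrambled and passed the minimum through DMSO only. The same holds for LEMD1, GSDMB, CYP4F3, ZNF467 and TMED7-TICAM2, so the direction of all these genes leans on the minimum.

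Most kept members of the mucin and protease lists were lower, by amounts that depended on the minimum. Of the mucins, CEACAMs and trefoil factors 9 of 18 were kept, 8 of them lower, with a median of -1.40. By 2-fold or more 6 were lower, against 9.87% of all genes. The median was -0.67 with a minimum of 20 FPKM, -0.73 with no minimum and -0.65 with ribosomal proteins as the centre. Members such as MUC5B were kept through DMSO only. MUC5B, an airway mucin, was at 14.1 FPKM in DMSO, 1.78 in GNF5, 4.27 in scrambled and 4.63 with the ABL1/ABL2 shRNAs (-1.72). CEACAM5, the carcinoembryonic antigen, was at 35.6, 50.6, 12.9 and 2.71 FPKM (-1.59), and TFF1 alone was higher (0.69). Among plasminogen activators and metalloproteases 9 of 11 kept of 19 were lower, 5 at least 2-fold against 9.87% of all genes, with a median of -0.92. With no minimum the median was -0.081 and with ribosomal proteins as the centre -0.17, and MMP28 was kept through DMSO only. The tissue activator PLAT was at 115, 71.0, 24.0 and 25.8 FPKM (-2.41), MMP28 at 18.2, 8.01, 1.44 and 1.28 (-3.18), and the urokinase gene PLAU had -1.20. The inhibitor SERPINE2 was higher, at 133 FPKM in DMSO and 281 in scrambled (0.87).

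Integrins and laminins had 5 of 18 kept members at least 2-fold lower, against 9.87% of all genes, and none higher by that much, against 7.56%. The median was -0.22, and it turned positive with ribosomal proteins as the centre or with GNF5 in place of DMSO. ITGB3, the platelet and vascular integrin chain, was at 14.6 FPKM in DMSO, 5.38 in GNF5, 0.59 in scrambled and 0.82 with the ABL1/ABL2 shRNAs (-3.49), LAMB2 had -2.27 and ITGA3 -1.59. ITGA6 was on the other side at 0.90. Of the lung lineage list 4 of 20 were kept, all lower: the surfactant gene SFTPB was at 15.2, 3.95, 0.20 and 0.08 FPKM (-3.96), SOX9 at -0.76, FOXA1 at -0.44 and GATA6 at -0.40. The lung factor NKX2-1 was at 0.013 FPKM in DMSO and listed at 0 in scrambled, so the lung lineage label of the line rests on few of its markers here. SFTPB passed the minimum through DMSO only, so its direction leans on the minimum, and it lacked the status OK in the shRNA table. Epithelial junction genes had a median of -0.28 (8 of 21 higher) and mesenchymal genes 0.25 (7 of 10 kept of 25 higher), and both changed sign under other settings.

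Immediate early genes, which answer growth factor signalling within minutes, were lower for 16 of 19 kept, with a median of -0.83. At least 2-fold lower were 8, against 9.87% of all genes. FOS (chr14:74815234-74818690 in hg18) was at 368 FPKM in DMSO, 55.4 in GNF5, 80.5 in scrambled and 91.0 with the ABL1/ABL2 shRNAs (-2.38), and FOSB at 37.0, 5.13, 7.25 and 7.42 (-2.41). DMSO alone was high for both, as it was for the phosphatase DUSP6 at 60.1 FPKM against 33.4 in scrambled (-1.03). JUNB had -1.40, DUSP5 -1.53 and ETV5 -1.74, while FOSL1 was higher at 0.37. With ribosomal proteins as the centre the median was -0.07. In PC9M FOS was at 213, 178, 39.3 and 41.5 FPKM in the same order of libraries (-2.40), both libraries of the GNF5 table being high. Of EGFR ligands and receptors 5 of 6 kept were lower, with a median of -0.60 that turned positive with ribosomal proteins as the centre and with GNF5 in place of DMSO. The ligand HBEGF was at 140 FPKM in DMSO and 57.4 in scrambled (-1.47), and the inhibitor ERRFI1 had -1.33. The receptor EGFR itself was the 1 member higher (0.31).

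NF-kB and cytokine genes were lower for 10 of 13 kept of 27, 6 at least 2-fold against 9.87% of all genes, with a median of -0.88. With no minimum the median was -0.15 and with ribosomal proteins as the centre -0.12, and IL1A and IL1B passed the minimum through DMSO only, so the count is no support for a change of the list. The cytokine IL1A was at 10.0 FPKM in DMSO, 4.78 in GNF5, 0.83 in scrambled and 0.48 with the ABL1/ABL2 shRNAs (-2.79), IL1B at 15.5, 25.8, 3.03 and 1.92 (-2.24) and lipocalin LCN2 at 723, 683, 219 and 167 (-1.92). The feedback inhibitor TNFAIP3 was against them, at 1.72, 13.3, 19.2 and 13.5 FPKM (2.69), with DMSO alone low. Of the interferon list only 8 of 41 genes were kept, 4 higher and 4 lower, with a median of 0.02, and MX1, IFIT1 and IFI27 were below 0.2 FPKM in both controls. In PC9M 27 interferon genes were kept, all higher in scrambled, with a median of 1.59. At least 2-fold higher were 22, against 0.978% of all genes there. Members such as IRF7 (1.77 FPKM in PC9M DMSO and 7.51 in scrambled) and USP18 (2.58 and 5.39) passed the minimum through scrambled only. The count leans on the minimum for such members. Among MHC class I genes 5 of 13 kept were higher and 8 lower (-0.21, turning positive with ribosomal proteins as the centre), with HLA-E at -1.53 and TAP2 at 1.18.

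Metabolic lists had medians on both sides of 0. Of 24 kept cholesterol synthesis genes 20 were higher and 7 at least 2-fold, against 7.56% of all genes, with a median of 0.44. HMGCS1, the synthase at the head of the pathway, was at 24.0 FPKM in DMSO, 199 in GNF5, 115 in scrambled and 183 with the ABL1/ABL2 shRNAs (2.01), with DMSO alone low, and ACAT2 had 1.70 and LSS 1.48. GNF5 over DMSO had a median of 1.59 for this list, so against GNF5 the scrambled library was lower, at -1.07. In PC9M 23 of 24 were lower in scrambled, with a median of -0.43. Fatty acid synthesis had 7 of 11 lower (-0.44, but 0.32 with ribosomal proteins as the centre), with the acetate enzyme ACSS2 at -1.69 and the elongase ELOVL6 at 1.30.

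Glycolysis genes were higher for 22 of 28, 5 at least 2-fold against 7.56% of all genes. Their median was 0.41 and became -0.10 with both treated libraries in place of the controls. PGK1 was at 137 FPKM in DMSO, 115 in GNF5, 448 in scrambled and 401 with the ABL1/ABL2 shRNAs (1.499), and PGAM1 had 1.43, whereas the hypoxia gene VEGFA went from 104 to 35.8 FPKM (-1.71). Oxidative phosphorylation was close to the median gene at 0.12, with 22 of 38 higher, and changed sign with GNF5 in place of DMSO. NRF2 targets, the antioxidant programme, were lower in PC9 for 18 of 22, with a median of -0.51 (0.24 with ribosomal proteins as the centre). Those lower by 2-fold or more were 4 of 22, against 9.87% of all genes. In PC9M 22 of 22 were lower, with a median of -0.59. The aldo-keto reductase AKR1C1 went from 454 to 170 FPKM in PC9 (-1.61) and from 536 to 183 in PC9M (-1.54), its close paralogs AKR1C2 and AKR1C3 making the split uncertain. Autophagy and lysosome genes were lower for 20 of 26, with a median of -0.51 (0.24 with ribosomal proteins as the centre). Of these 7 were at least 2-fold lower, against 9.87% of all genes, led by the cathepsin gene CTSL1 at -1.51 and GABARAPL1 at -1.24.

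Lists of the gene expression machinery had medians on both sides of 0. All 46 ribosomal protein genes were lower in scrambled, with a list median of -0.75 and a range from -1.32 to -0.17. Those lower by 2-fold or more were 7 of 46, against 9.87% of all genes. RPS25 was at 1935 FPKM in DMSO, 2076 in GNF5, 889 in scrambled and 1460 with the ABL1/ABL2 shRNAs. For 40 of the 46 both shRNA libraries were below both libraries of the GNF5 table, against 31.8% of all genes. The list summed to 44803 FPKM in DMSO and 30841 in scrambled, and in PC9M 45 of 46 were lower, with a median of -0.25. A centre placed on these genes instead of on the median gene gave 3017 genes 2-fold higher and 209 lower, so the even split of the calls rests on the centre.

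Ribosome biogenesis and MYC targets were higher for 27 of 30, with a median of 0.52. ODC1, the first enzyme of polyamine synthesis, was at 32.3 FPKM in DMSO, 39.1 in GNF5, 287 in scrambled and 248 with the ABL1/ABL2 shRNAs (2.91), and the nucleolar NOP58 and BOP1 had 1.07 each, while MYC itself went from 246 to 208 FPKM (-0.44). In PC9M 27 of 30 were higher, with a median of 0.31. Splicing factors were higher for 28 of 30, 9 at least 2-fold against 7.56% of all genes, with a median of 0.48 (0.02 in PC9M). SRSF2 had 1.56, TRA2B 1.54 and HNRNPM 1.48. Heat shock proteins had 13 of 20 higher and 4 at least 2-fold, against 7.56% of all genes, with a median of 0.63. The chaperone HSP90AA1 was at 644 FPKM in DMSO, 614 in GNF5, 2083 in scrambled and 1874 with the ABL1/ABL2 shRNAs (1.49). HSPE1 had 1.69 and HSPA4L 1.95. YAP/TAZ targets had 9 of 12 kept higher (0.47), THBS1 at 1.93 among them, and metallothioneins had 2 kept of 10, MT2A at 0.50 and MT1X at 0.59.

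The control comparison of PC9M shares no library with that of PC9. Over 7630 genes kept in both lines, the genes 2-fold higher in PC9 had a median of 0.15 in PC9M, with 461 of 620 above 0, and those 2-fold lower had -0.26, with 378 of 538 below 0, where all genes had 0.01. At least 2-fold higher in both lines were 20 genes, 3.23% of the 620 in PC9 and 37.0% of the 54 in PC9M. At least 2-fold lower in both were 23, 4.28% of 538 and 52.3% of 44. Opposite calls were 7 genes lower in PC9 and higher in PC9M, and 1 the other way. Over all genes kept in each line, 7.56% were 2-fold higher and 9.87% lower in PC9, and 0.978% and 0.713% in PC9M.

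**Figure D4:**
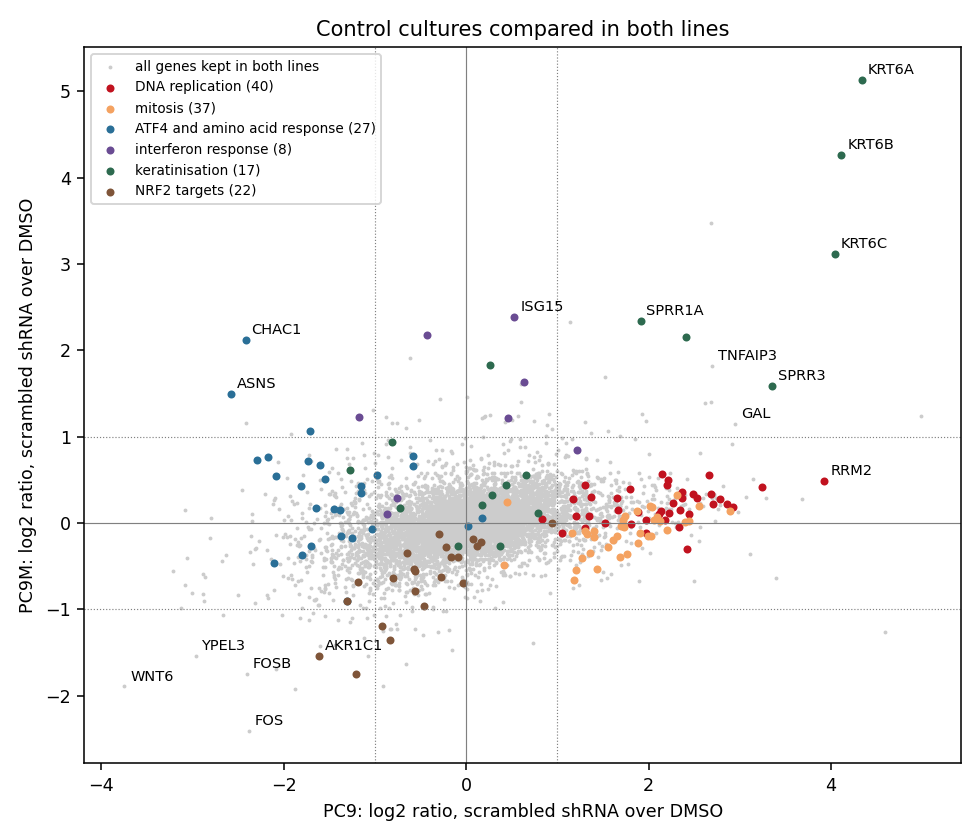
Centred log2 ratio of scrambled over DMSO in PC9 (x axis) and PC9M (y axis) for the 7630 genes kept in both lines, with members of 6 lists coloured and 2-fold marked by dotted lines. Replication and mitosis spread along the x axis near 0 in PC9M, keratin 6 genes lie high on both axes, and CHAC1 and ASNS lie low in PC9 and high in PC9M.

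Among the genes higher in both lines were KRT6A, KRT6B, KRT6C, SPRR1A, SPRR1B, SPRR3 and the elastase inhibitor PI3 of keratinising epithelium, the chromatin protein HMGA2 (25.8 to 116 FPKM in PC9 and 11.1 to 28.0 in PC9M), the matrix protein TNC, the neuropeptide GAL, the serpin SERPINB5 and TNFAIP3. Among those lower in both were FOS, FOSB and the nuclear receptor NR4A1 of the immediate early response, AKR1C1, AKR1C2 and ALDH3A1 of the NRF2 and aldehyde response, and the sodium channel subunit SCNN1A (280 to 99.6 FPKM in PC9 and 43.3 to 20.3 in PC9M). WNT6 was at 48.1 and 3.20 FPKM in the PC9 controls and at 6.08 and 0.90 in those of PC9M. YPEL3, a p53-linked growth suppressor, was at 58.8 and 7.80, and at 12.7 and 3.67. Among the genes lower in PC9 and higher in PC9M were ASNS, CHAC1, SESN2, LCN2, PLAT and IFITM3, and SCARNA22 alone was higher in PC9 and lower in PC9M. These genes were chosen after their values were seen.

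All lists together held 626 kept genes, which included 19.2% of the genes 2-fold higher in PC9 and 12.5% of those 2-fold lower. Most genes apart between the control cultures therefore lie outside the groups described here.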

How the data were processed

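The authors deposited 5 tables of FPKM, each for a pair of libraries, made with TopHat and Cuffdiff on hg18 per the submitters' processing notes, with versions and annotation not given in the sources used here. Each table was scaled on its own, so every level set across tables carries that limit. The 28 date-like symbols in each table, 1591 small RNA symbols (MIR, SNORD, SNORA) and EEF1A1, which has no estimate in 1 table, were left out, and 21643 genes were used. Genes were kept at 5 FPKM in either library, and log2 ratios with a pseudocount of 1 FPKM were centred on the median of genes kept. A ratio on this scale understates the change of low genes. No column belonged to another series. Called means at least 2-fold after centring. With 1 library per group no p-value was computed, and FPKM gives no counting interval. Relative depth came from the densest 0.1-wide window of log2 ratios among 1298 genes under 0.06 FPKM in both PC9 controls (1682 in PC9M). Of the genes kept in PC9, 8424 were protein-coding by RefSeq symbol, 141 lacked the status OK in a table and 6 were listed at 0 in a control. Listed loci had 1 added to their start. Named genes were ABL1, ABL2, RRM2 and MCM2, the markers, the 12 highest and 12 lowest protein-coding genes with status OK and above 0 in both controls, the 8 widest gaps each way between the tables, and protein-coding genes listed at 0 in 1 control, and up to 6 members with and 2 against each list's median. Others were added after their values were seen. The members and the 34 lists were chosen with earlier results of these data known. Alternatives were pseudocounts of 0.1 and 5, minima of 1, 20 and none, no centre, a centre on ribosomal proteins, quantile normalisation, protein-coding genes or status OK only, and other libraries in place of the controls. The ratio code was tested on simulated data. Python 3.11.15, numpy 2.4.6, pandas 2.3.3 and matplotlib 3.10.9 were used. Some items are not reported here.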

Additional observations from a re-analysis of the deposited data

Results flagged for a closer look

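Lists whose medians were more than 0.3 from 0 on opposite sides in the PC9 and PC9M control comparisons stand out, and the difference between the lines was not tested. The ATF4 list had a median of -1.54 in PC9 and 0.43 in PC9M, scrambled over DMSO. Cholesterol synthesis had 0.44 and -0.43. YAP/TAZ targets had 0.47 and -0.37. Members kept in PC9 and PC9M were 31 and 27 for the ATF4 list, 24 and 24 for cholesterol synthesis, and 12 and 20 for YAP/TAZ targets. The ATF4 and YAP/TAZ medians therefore cover different members in each line. With GNF5 in place of DMSO the YAP/TAZ median in PC9 was 0.074.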

How the results depend on the processing

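No paired analysis was possible because each group has 1 library. For the 12 lists with medians past 1.5-fold and all settings, 17 medians moved by over 1.5 times and 4 changed sign, while 134 did neither, and the cause was not tested. With a pseudocount of 0.1, 96 genes were 2-fold lower in PC9M. With a pseudocount of 5, 375 genes were higher and 510 lower in PC9, 42 and 27 in PC9M, 182 and 168 lay 2-fold above and below in the order of the 4 libraries, and replication had 1.53. With a minimum of 20 FPKM these counts were 371 and 480, 34 and 29, and 204 and 200, with mucins at -0.67. With no minimum 1068 genes were higher in PC9, and the medians were -0.15 for NF-kB, -0.081 for plasminogen and metalloproteases and -0.73 for mucins. Centred on ribosomal proteins, the counts were 3017 and 209 in PC9, 148 and 27 in PC9M, and 963 and 59 in the order. That centre gave medians of 2.94 for replication, 2.48 for mitosis, 1.39 for heat shock, -0.79 for ATF4, 0.020 for tRNA synthetases, 0.15 for EGFR, -0.12 for NF-kB, -0.075 for immediate early genes, -0.17 for plasminogen, -0.65 for mucins and -0.036 for quiescence. It turned 11 of 29 lists. With ABL1/ABL2 shRNAs over GNF5, 1016 genes were higher, and NF-kB had -1.52, immediate early genes -0.13 and EGFR 0.072. With scrambled over GNF5, added after seeing the data, 1102 were higher and 1356 lower, NF-kB had -1.54 and EGFR 0.10. Replication, mitosis and the ATF4 list kept their direction under every setting run. Read depth is not stated, so the precision of low genes is unknown.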
